A study of Homo sapiens with 36 samples.

Results

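Targeted RNA-Seq counts of 5 cell lines from splenic marginal zone lymphoma or hairy cell leukaemia were compared with those of 16 germinal centre B-cell-like (GCB) lymphoma lines, 21 of the 36 human lymphoma lines in the series. The hairy-cell lines were HAIR_M and HC_1, and the splenic marginal zone lines were KARPAS1718, SSK41 and VL51. The GCB lines were DB, DOHH2, FARAGE, KARPAS422, OCILY1, OCILY7, OCILY8, OCILY18, OCILY19, RCK8, SUDHL4, SUDHL6, SUDHL10, SUDHL16, TOLEDO and WSU_DLCL2. The labels give the name of each line and no class, so the lines were placed in these classes by name, from general knowledge of their origin. Every line is an immortalised B-cell culture. The labels name no treatment, and each line gave 1 library, prepared from a lysate of the culture and run as a singleton. The lines therefore serve as the replicates of a class, and p-values measure the spread between lines. Mutations carried by the lines were not used here.

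Hairy cell leukaemia and splenic marginal zone lymphoma are slow-growing tumours of mature B cells that gather in the spleen and marrow. GCB lymphoma keeps features of the germinal centre, the site where B cells divide and mutate their antibody genes under the control of the repressor BCL6. NF-kB transcription factors, switched on by antigen, CD40 and cytokine receptors, drive chemokine, survival and costimulation genes in B cells that have left that site.

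Total counts ran from 6422917 to 10544463 in the 5 lines and from 6960169 to 13451527 in the GCB lines. The panel held 2549 genes, of which 2334 had at least 10 CPM in at least 4 of the 21 lines and were tested. CPM are the counts of a gene scaled to library size, here with a composition factor (TMM), and they compare a gene between lines, not genes with each other. The composition factors overlapped, at 0.757 to 1.20 in the 5 lines and 0.664 to 1.47 in the GCB lines. A count of 0 allows 3 counts, or at most 0.426 CPM in the 5 lines and 0.430 CPM in the GCB lines, for counting error only. Summed levels of markers of other cell types overlapped as well: 15 T and NK cell markers summed to 142 to 683 CPM in the 5 lines and 106 to 954 CPM in the GCB lines, and 14 myeloid markers to 609.7 to 1727 CPM in the 5 lines and 269 to 1272 CPM in the GCB lines. The sums were 215 to 778 CPM in the 5 lines and 71.8 to 2816 CPM in the GCB lines for 15 stromal and endothelial markers, and 956 to 1588 CPM in the 5 lines and 451 to 2396 CPM in the GCB lines for 13 epithelial markers. In these bulk lysates, fewer cells of a type and less RNA per cell cannot be told apart.

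Taken as a group, the 5 lines had higher levels of genes for chemokines, a D-type cyclin, an immune checkpoint ligand, signalling feedback and scaffold proteins and a detoxifying enzyme, and a lower level of 1 DNA repair gene. Not every line shared the higher levels. KARPAS1718 and SSK41 were below the GCB median for the chemokines CCL5 and CCL20 and the cyclin CCND2. The checkpoint ligand PDCD1LG2 was near or below that median in both. Of the 2334 genes, 24 were higher (1.03%) and 1 was lower (0.0428%) in the 5 lines at an adjusted p under 0.05, by the edgeR quasi-likelihood test with Benjamini-Hochberg adjustment over all genes tested. Without adjustment, 161 genes were higher and 36 lower at a p under 0.05. No gene separated the groups completely in either direction (0.00% of genes tested), and the median log2 fold change over all genes was -0.04. In all, 1093 genes had a positive and 1241 a negative log2 fold change. Counts for the gene lists below are to be read beside these shares. The number of calls depended on the test: limma-voom called 2 genes, none of the 25, and the DESeq2 Wald test called 41, of which 23 were among the 25. It also depended on single lines, with 7 genes called without HAIR_M, 15 without HC_1 or without VL51, and 42 without FARAGE. Where the line left out has the highest GCB level of a gene, the log2 fold change of that gene is bound to rise. A pass in such a fit describes the dependence on that line and is not support for a difference. Log2 fold changes are of the 5 lines over the GCB lines throughout.

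**Figure D1:**
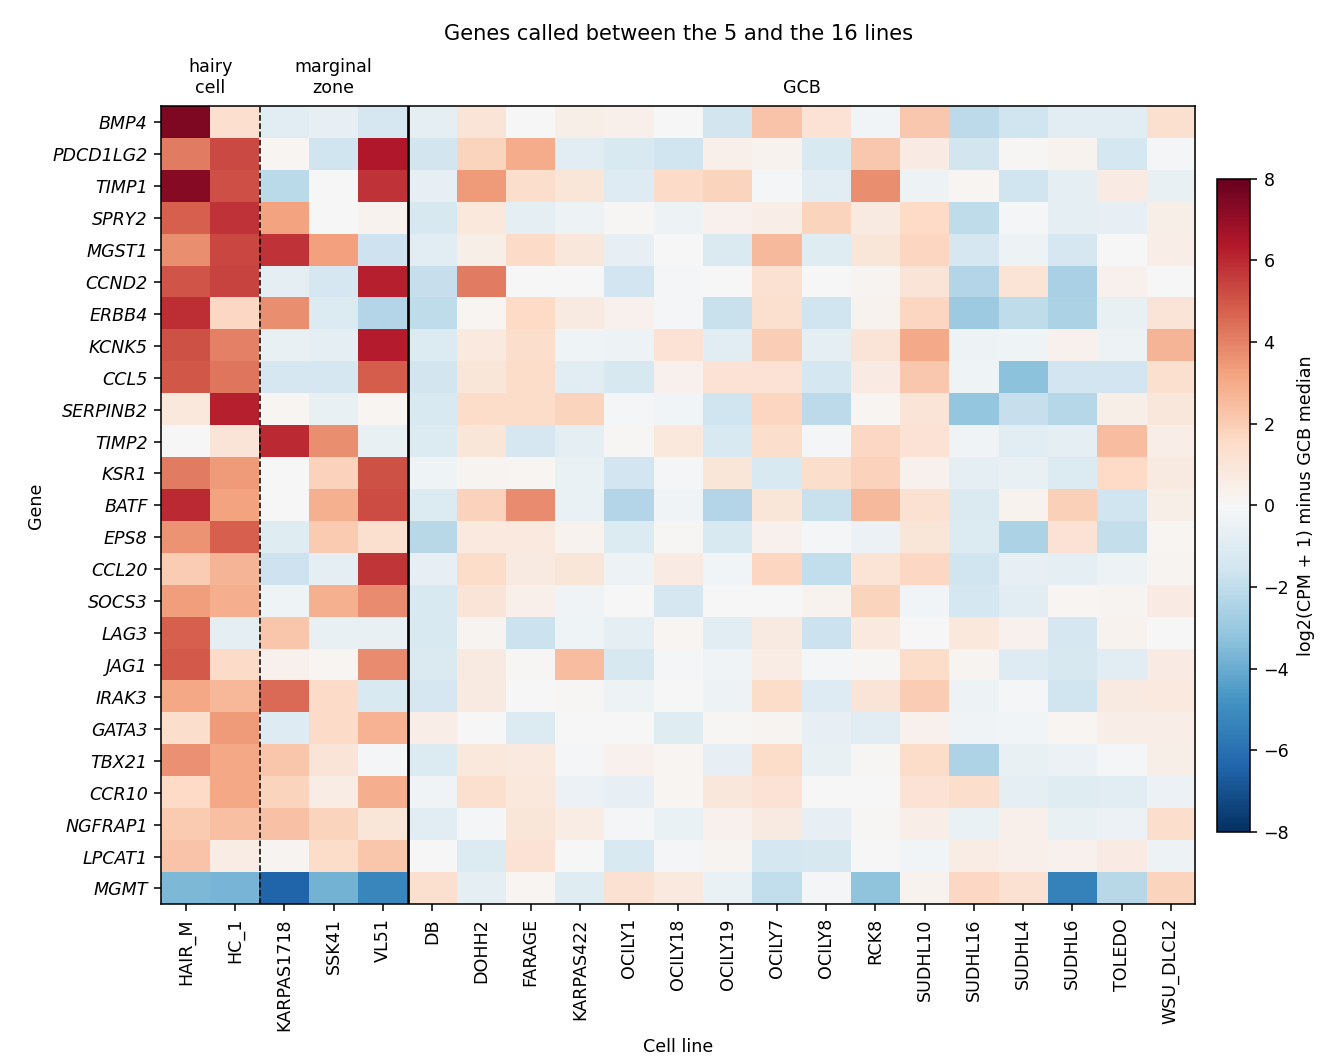
Heat map of the 25 genes called between the 5 lines (left of the solid line, with hairy-cell and marginal zone lines parted by a dashed line) and the 16 GCB lines. Colour gives log2(CPM + 1) minus the median of the GCB lines, and genes run from the most positive log2 fold change at the top to the negative one at the bottom. HAIR_M lies above every GCB line for 22 of the 24 genes that were higher, and SSK41 for 7.

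The 24 genes were not raised evenly over the 5 lines. They were called for higher levels in these lines, so levels above the GCB lines are in part built in. The counts below describe the calls, and shares of all genes tested were not worked out by line. HAIR_M was above every GCB line for 22 of the 24 genes, HC_1 for 17, VL51 for 14, KARPAS1718 for 9 and SSK41 for 7. For 6 genes 4 of the 5 lines were above every GCB line, for 11 genes 3 lines were, for 5 genes 2 lines were, and for 2 genes 1 line was. All 5 lines were above the GCB median for 6 genes, which were KSR1, BATF, JAG1, CCR10, NGFRAP1 and LPCAT1. Among the GCB lines, DOHH2 was above the GCB median for 22 of the 24 genes, OCILY7 and RCK8 for 21, and DB for 2.

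SPRY2 (chr13:80335976-80340951, minus strand, GRCh38), a feedback inhibitor of the RAS and MAPK pathway, was at 234 CPM in HAIR_M, 457 in HC_1, 76.9 in KARPAS1718, 7.34 in SSK41 and 9.36 in VL51. SPRY2 ran from 1.09 to 28.2 CPM (OCILY8) in the GCB lines, with a median of 7.53 CPM. HAIR_M, HC_1 and KARPAS1718 lay above every GCB line, and SSK41 and VL51 lay close to the GCB median. The difference passed the test (log2 fold change 4.03, SE 0.65, edgeR adjusted p = 0.00284). KSR1 (chr17:27456470-27626438, plus strand), a scaffold that holds the kinases of the same pathway together, was at 279 CPM in HAIR_M, 168 in HC_1, 15.3 in KARPAS1718, 56.2 in SSK41 and 547 in VL51. KSR1 ran from 4.54 to 56.7 CPM (RCK8) in the GCB lines, with a median of 15.1 CPM. HAIR_M, HC_1 and VL51 were above all GCB lines, SSK41 lay just under the highest of them, and KARPAS1718 sat at the GCB median. KSR1 was higher (log2 fold change 3.39, SE 0.57, edgeR adjusted p = 0.00348). The calls of both were kept with any 1 of the 21 lines left out. Over all alternatives the adjusted p was 3.13e-06 to 0.422 for SPRY2, highest in the marginal zone lines alone, and 2.19e-05 to 0.0907 for KSR1. Neither passed in limma-voom or in limma on the deposited log2 values.

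SPRY2 was the only one of 33 tested MAPK pathway and dual-specificity phosphatase genes that passed the test, against 1.03% of all genes. In all, 14 of the 33 had a positive log2 fold change, and the median was -0.09, against -0.04 over all genes. DUSP5, a phosphatase that inactivates ERK, was between 47.5 and 2462 CPM (median 391) in the 5 lines and between 4.87 and 1104 CPM (median 82.6) in the GCB lines (log2 fold change 2.18, edgeR adjusted p = 0.251). It passed without SUDHL16 (log2 fold change 2.90, edgeR adjusted p = 0.0226; adjusted p 0.0226 to 0.999 over all alternatives). JUN, a subunit of the AP-1 factor, reached 4235 CPM in KARPAS1718 and was 322 in HAIR_M, 282 in HC_1, 693 in SSK41 and 347 in VL51, with a GCB median of 325 CPM (log2 fold change 1.79, edgeR adjusted p = 0.211).

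MGST1 (chr12:16347142-16609259, plus strand), a membrane-bound glutathione transferase that detoxifies lipid peroxides, was at 521 CPM in HAIR_M, 1629 in HC_1, 2258 in KARPAS1718, 391 in SSK41 and 11.9 in VL51. MGST1 ran from 14.8 to 240.0 CPM (OCILY7) in the GCB lines, with a median of 39.4 CPM. It was above every GCB line in HAIR_M, HC_1, KARPAS1718 and SSK41, and VL51 was below the lowest GCB line. The difference passed the test (log2 fold change 3.99, SE 0.64, edgeR adjusted p = 0.00284) with any 1 line left out, and also in the hairy-cell lines alone and the marginal zone lines alone (adjusted p 1.06e-06 to 0.168 over all alternatives). ERBB4, a receptor tyrosine kinase for neuregulins, was at 2389.7 CPM in HAIR_M, 123 in HC_1, 521 in KARPAS1718, 17.3 in SSK41 and 6.59 in VL51. ERBB4 ran from 4.24 to 126 CPM (SUDHL10) in the GCB lines, with a median of 38.5 CPM. HAIR_M and KARPAS1718 exceeded all GCB lines, HC_1 lay just under the highest of them, and SSK41 and VL51 were below the GCB median. ERBB4 was higher over the group (log2 fold change 3.75, SE 0.80, edgeR adjusted p = 0.0173), and the call was lost without HAIR_M (log2 fold change 1.88, edgeR adjusted p = 0.757; adjusted p 0.000525 to 0.76 over all alternatives). EPS8, an adaptor that links receptor kinases to actin, was at 269 CPM in HAIR_M, 616 in HC_1, 10.5 in KARPAS1718, 96.5 in SSK41 and 52.8 in VL51. EPS8 ran from 2.83 to 49.9 CPM (SUDHL6) in the GCB lines, with a median of 21.6 CPM. All of the 5 lines but KARPAS1718 were above every GCB line, and EPS8 was higher (log2 fold change 3.28, SE 0.61, edgeR adjusted p = 0.00868), though not without HC_1 (log2 fold change 2.31, edgeR adjusted p = 0.108; adjusted p 0.000217 to 0.423 over all alternatives).

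**Figure D2:**
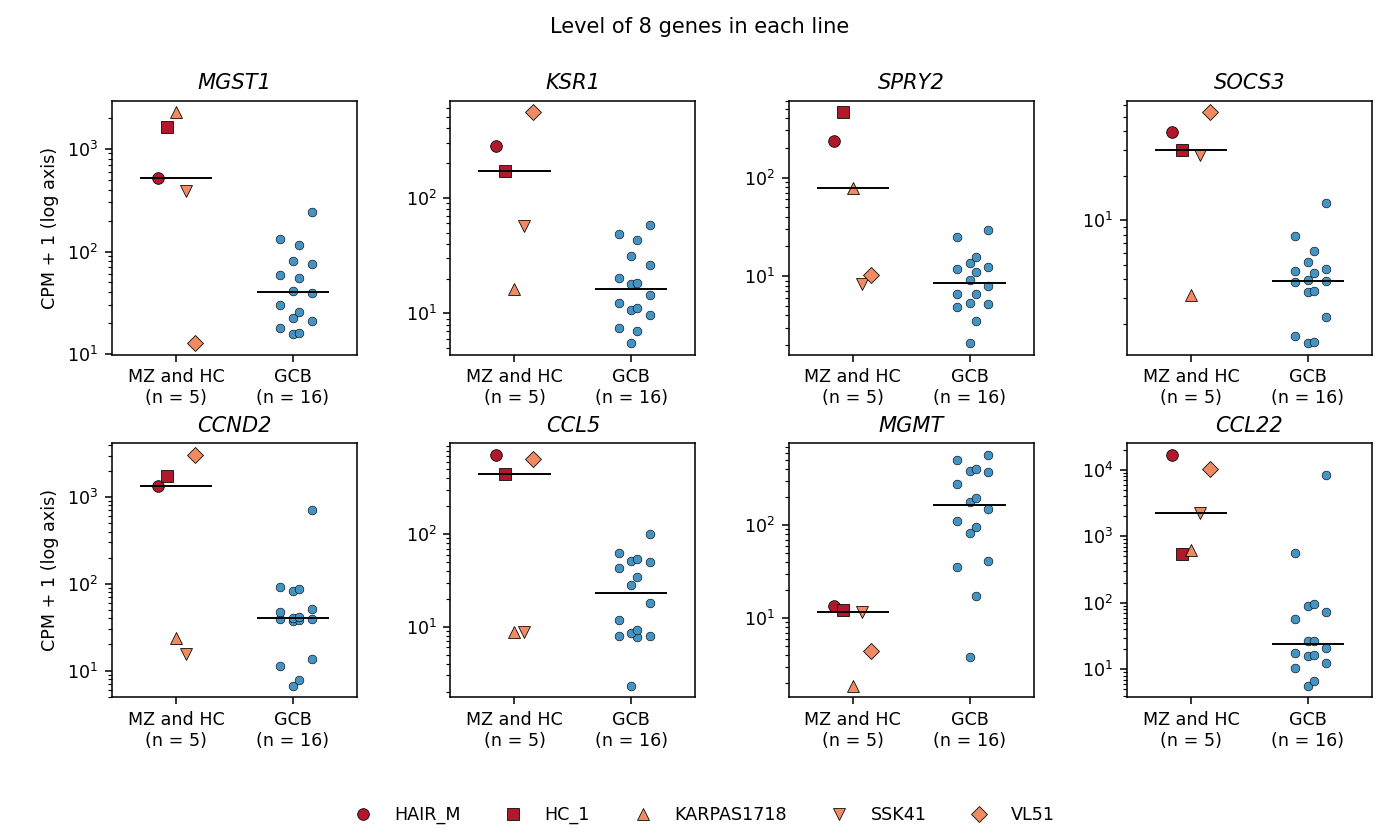
Level of 8 genes in each line as CPM + 1 on a log axis, with the 5 lines on the left of each panel (1 symbol per line, dark red for hairy-cell and orange for marginal zone lines) and the 16 GCB lines on the right. Horizontal bars are group medians. MGST1 is high in 4 lines and low in VL51, CCND2 and CCL5 are low in KARPAS1718 and SSK41, MGMT is low in all 5 lines, and CCL22 is high in all 5 lines and in RCK8.

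CCND2 (chr12:4273772-4305350, plus strand), a D-type cyclin that drives entry into the cell cycle, was at 1338 CPM in HAIR_M, 1735 in HC_1, 22.8 in KARPAS1718, 14.5 in SSK41 and 3052 in VL51. CCND2 ran from 5.71 to 715 CPM (DOHH2) in the GCB lines, with a median of 39.2 CPM. HAIR_M, HC_1 and VL51 were above every GCB line, and KARPAS1718 and SSK41 were below the GCB median. CCND2 was higher over the group (log2 fold change 3.88, SE 0.88, edgeR adjusted p = 0.0222), a call lost without HAIR_M (log2 fold change 3.85, edgeR adjusted p = 0.0755), without HC_1 (log2 fold change 3.73, edgeR adjusted p = 0.0635) or without VL51 (log2 fold change 3.09, edgeR adjusted p = 0.181; adjusted p 0.000921 to 0.479 over all alternatives). It was the only one of 20 G1 cyclin and inhibitor genes called, against 1.03% of all genes. CCND1, the cyclin raised in many hairy cell leukaemias, was between 18.8 and 243 CPM (median 29.7) in the 5 lines and between 1.52 and 269 CPM (median 11.0) in the GCB lines and did not pass (log2 fold change 1.45, edgeR adjusted p = 0.76). Each of the 5 lines was above the GCB median for CCND1, and FARAGE had the highest level of the 21 lines. Without FARAGE, CCND1 passed (log2 fold change 2.49, edgeR adjusted p = 0.0316; adjusted p 0.0316 to 0.999 over all alternatives). As FARAGE is the highest GCB line for CCND1, leaving it out was bound to raise the log2 fold change. CCND3, the D-type cyclin of germinal centre B cells, was between 135 and 767 CPM (median 186) in the 5 lines and between 94.3 and 2008 CPM (median 460.1) in the GCB lines and did not pass either (log2 fold change -1.11, edgeR adjusted p = 0.654). Of 39 cell cycle genes none was called, with a median log2 fold change of 0.01. MKI67, a marker of dividing cells, was between 277 and 1264 CPM (median 641) in the 5 lines and between 202 and 2333 CPM (median 640.2) in the GCB lines (log2 fold change 0.10, edgeR adjusted p = 1).

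Of 49 tested chemokines and cytokines, CCL5 and CCL20 were called, 26 had a positive log2 fold change, and the median was 0.04. Over all genes 1.03% were called higher, 1093 of 2334 were positive, and the median was -0.04. CCL5, a chemokine that attracts T cells and monocytes, was at 716 CPM in HAIR_M, 445 in HC_1, 7.89 in KARPAS1718, 7.71 in SSK41 and 651 in VL51. CCL5 ran from 1.32 to 98.6 CPM (SUDHL10) in the GCB lines, with a median of 22.0 CPM. For CCL5, HAIR_M, HC_1 and VL51 exceeded every GCB line, while KARPAS1718 and SSK41 were below the GCB median. It was higher over the group (log2 fold change 3.60, SE 0.76, edgeR adjusted p = 0.0173), though not without HAIR_M (log2 fold change 3.21, edgeR adjusted p = 0.0823) or without VL51 (log2 fold change 3.17, edgeR adjusted p = 0.0725; adjusted p 0.000466 to 0.597 over all alternatives). CCL20, the ligand of the receptor CCR6 on B cells and Th17 cells, was at 95.8 CPM in HAIR_M, 157 in HC_1, 6.39 in KARPAS1718, 12.9 in SSK41 and 1248 in VL51. CCL20 ran from 5.01 to 77.1 CPM (OCILY7) in the GCB lines, with a median of 23.0 CPM. The same lines stood above the GCB range, VL51 far above the rest, and KARPAS1718 and SSK41 again lay below the GCB median. CCL20 was higher (log2 fold change 3.24, SE 0.70, edgeR adjusted p = 0.0173), and the call rested on VL51, without which it was lost (log2 fold change 0.96, edgeR adjusted p = 0.999; adjusted p 0.000526 to 0.999 over all alternatives).

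CCL20 is a known NF-kB target, and its promoter is shown with the places that match the NF-kB motif in capitals, as 1 of the 11 called genes that matched 1 promoter in the RefSeq table. The window covers 250 bases before to 50 bases after the start of the gene, at chr2:227813592-227813891 on the plus strand of GRCh38.p14, and is written 5′ to 3′.
CCL20: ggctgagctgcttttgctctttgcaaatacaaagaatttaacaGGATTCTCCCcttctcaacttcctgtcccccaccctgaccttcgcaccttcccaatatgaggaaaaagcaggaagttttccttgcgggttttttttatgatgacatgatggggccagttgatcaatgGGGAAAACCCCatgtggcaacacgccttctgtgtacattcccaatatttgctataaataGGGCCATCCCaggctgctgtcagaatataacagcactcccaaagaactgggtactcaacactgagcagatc
There were 4 matches over both strands, beginning at bases -207, -80, -79 and -21 from the start, of which the pair at -80 and -79 overlap. The motif was in 4 of the 11 promoters (36.4%), those of CCL20, MGMT, IRAK3 and LPCAT1, and in 20.8% of 35116 promoters of the same length. The AP-1 motif TGANTCA was in 1 of the 11, that of SERPINB2 (9.09%, against 7.71% of all promoters). The STAT motif TTCNNNGAA was in none of the 11, against 7.66% of all promoters. A match describes these letters and is not a measured binding site. The other called genes, CCL5 and SOCS3 among them, had no single promoter in the RefSeq table and were not examined. With 11 promoters, the shares say little about the called genes as a group.

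CCL22, which draws regulatory T cells through the receptor CCR4, was at 16863 CPM in HAIR_M, 546 in HC_1, 633 in KARPAS1718, 2276 in SSK41 and 10484 in VL51. CCL22 ran from 4.65 to 8282 CPM (RCK8) in the GCB lines, with a median of 22.7 CPM. HAIR_M and VL51 were above every GCB line, KARPAS1718 and SSK41 above all but RCK8, and HC_1 above all but RCK8 and DOHH2. It did not pass the edgeR test (log2 fold change 3.41, SE 1.34, edgeR adjusted p = 0.372). It passed in limma-voom (log2 fold change 5.98, adjusted p = 0.00659), in limma on the authors' deposited log2 values (log2 fold change 6.08, adjusted p = 0.048), and in edgeR without RCK8 (log2 fold change 6.51, adjusted p = 0.000959). Over 35 alternatives in all, the adjusted p of CCL22 was 0.000959 to 0.988, and 5 were past the threshold. The other gene called by limma-voom was PLA1A, a phospholipase named here after its values were seen, with an edgeR log2 fold change of 4.22 and adjusted p = 0.2.

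Of 32 tested NF-kB target and feedback genes, 26 had a positive log2 fold change and 1, CCL5, passed the test, with a median log2 fold change of 0.86 against -0.04 over all genes. Over all genes 1093 of 2334 were positive and 1.03% were called higher. The median over the genes of log2 CPM minus the GCB median was 1.48 in HAIR_M, 1.20 in HC_1, 1.01 in KARPAS1718, 0.80 in SSK41 and 2.02 in VL51, against -0.75 to 1.96 in the GCB lines. The 5 lines were all positive. Among the GCB lines RCK8 stood at 1.96, above all of the 5 lines but VL51, FARAGE at 1.52, also above the other 4, and DOHH2 at 0.89, above SSK41. Fits were also made without FARAGE, a line known to carry Epstein-Barr virus, and RCK8, a line known for constant NF-kB activity. The virus status of the other lines, the 5 lines among them, was not used, and the part of the virus in these values was not tested. As FARAGE and RCK8 are the highest GCB lines on this list, leaving them out fixes the direction in which its values move. Without both, 5 of the 32 genes passed (NFKB2, CCL22, CCL5, BCL2A1 and CCR7), which is given as a description. Calls over all genes rose in that fit too, to 51 of 2311 genes tested, from 25 of 2334 with all GCB lines. BCL2A1, a survival gene of the BCL2 family, was between 1269 and 3248 CPM (median 1559) in the 5 lines and between 21.0 and 4447 CPM (median 196) in the GCB lines. It passed in that fit (log2 fold change 3.45, edgeR adjusted p = 0.00168) but not over all GCB lines (log2 fold change 1.98, edgeR adjusted p = 0.477), and it passed with FARAGE alone left out (log2 fold change 2.96, edgeR adjusted p = 0.0155; adjusted p 0.00168 to 0.943 over all alternatives). NFKB2, the p100 and p52 subunit of the alternative pathway, was between 266 and 3455 CPM (median 561) in the 5 lines and between 29.0 and 1553 CPM (median 201) in the GCB lines (log2 fold change 1.65, edgeR adjusted p = 0.364). TNFAIP3, which encodes the feedback inhibitor A20, was between 109 and 2244 CPM (median 891) in the 5 lines and between 8.31 and 1576 CPM (median 94.0) in the GCB lines (log2 fold change 1.79, edgeR adjusted p = 0.557). Among 20 NF-kB subunits and upstream signalling genes none passed, and the median log2 fold change was 0.01. MAP3K14, the kinase NIK of the alternative pathway, was 118 CPM in HAIR_M and 115 in HC_1, and 261 in KARPAS1718, 231 in SSK41 and 587 in VL51, against a GCB median of 125 and highest level of 199.5 CPM (log2 fold change 1.05, edgeR adjusted p = 0.202).

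**Figure D3:**
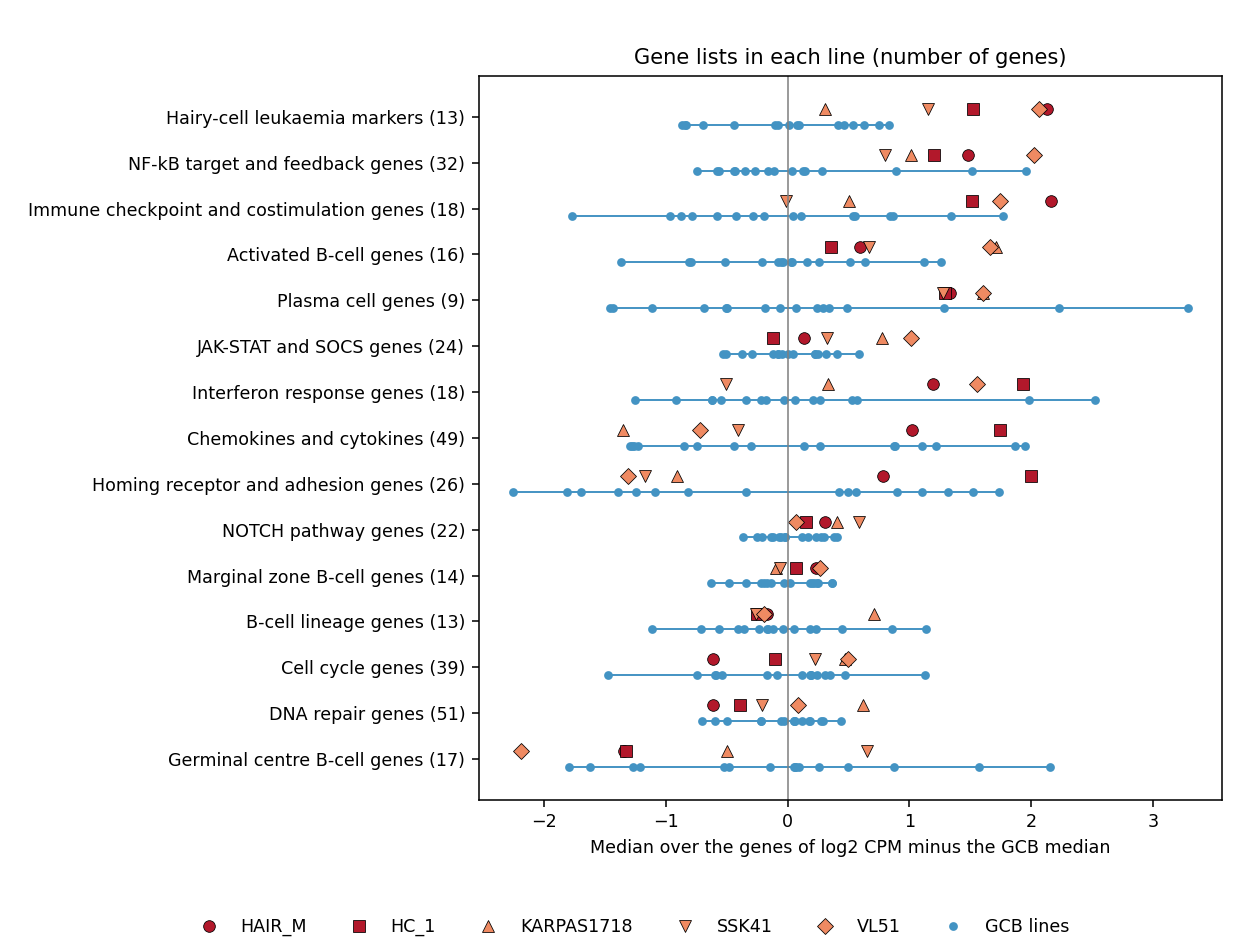
Level of 15 gene lists in each line, as the median over the tested genes of log2 CPM minus the median of the GCB lines, with the number of genes in brackets. Symbols give the 5 lines and, under them, blue points joined by a line give the 16 GCB lines. The 5 lines are all positive for NF-kB targets, hairy-cell markers, and activated B-cell, plasma cell and NOTCH pathway genes. DOHH2 and RCK8 are above all 5 lines for plasma cell genes. Germinal centre genes run from -2.19 in VL51 to 0.66 in SSK41.

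PDCD1LG2, which encodes the PD-1 ligand PD-L2, was at 53.9 CPM in HAIR_M, 119 in HC_1, 2.38 in KARPAS1718, 0 in SSK41 and 256 in VL51. PDCD1LG2 ran from 0 to 23.4 CPM (FARAGE) in the GCB lines, with a median of 2.06 CPM. HAIR_M, HC_1 and VL51 were above every GCB line, KARPAS1718 was near the GCB median, and no count was found in SSK41. The difference passed narrowly (log2 fold change 4.42, SE 1.10, edgeR adjusted p = 0.0481), and among the fits without 1 line it was kept where KARPAS1718, SSK41, FARAGE or RCK8 was left out. Over all alternatives it was kept in 9 of 33, with adjusted p 0.00443 to 0.675. LAG3, an inhibitory receptor that binds MHC class II, was at 299 CPM in HAIR_M, 5.29 in HC_1, 49.0 in KARPAS1718, 6.32 in SSK41 and 6.20 in VL51. LAG3 ran from 2.27 to 18.5 CPM (SUDHL16) in the GCB lines, with a median of 9.82 CPM. HAIR_M and KARPAS1718 exceeded all GCB lines, and HC_1, SSK41 and VL51 were below the GCB median. The call of LAG3 (log2 fold change 2.97, SE 0.66, edgeR adjusted p = 0.0195) was lost without HAIR_M (log2 fold change 0.84, edgeR adjusted p = 0.988; adjusted p 0.00229 to 0.988 over all alternatives). These were the 2 of 18 immune checkpoint and costimulation genes called, against 1.03% of all genes. Of the 18, 14 had a positive log2 fold change, with a median log2 fold change of 0.96 against -0.04 over all genes. CD274, which encodes PD-L1, was 168 CPM in HAIR_M, 332 in HC_1 and 731 in VL51, and 10.3 in KARPAS1718 and 15.4 in SSK41, against a GCB median of 31.2 CPM and 1049.5 CPM in RCK8 (log2 fold change 1.25, edgeR adjusted p = 0.953).

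SOCS3 (chr17:78356778-78360077, minus strand), a feedback inhibitor of cytokine signalling through JAK and STAT3, was at 38.3 CPM in HAIR_M, 28.6 in HC_1, 2.13 in KARPAS1718, 26.5 in SSK41 and 52.6 in VL51. SOCS3 ran from 0.484 to 12.1 CPM (RCK8) in the GCB lines, with a median of 2.90 CPM. All of the 5 lines but KARPAS1718 were above every GCB line. SOCS3 was higher (log2 fold change 3.10, SE 0.58, edgeR adjusted p = 0.00868) and kept its call with any 1 line left out (adjusted p 0.000217 to 0.104 over all alternatives). It was the only one of 24 JAK-STAT and SOCS genes called, against 1.03% of all genes. The median log2 fold change of the 24 was 0.35 against -0.04 over all genes. SOCS1, another feedback inhibitor, was between 529 and 2217 CPM (median 1193) in the 5 lines and between 4.76 and 1411 CPM (median 245) in the GCB lines (log2 fold change 1.75, edgeR adjusted p = 0.35), and the 5 lines were all above the GCB median. STAT5A, a transcription factor below cytokine receptors, was between 22.2 and 947 CPM (median 170.5) in the 5 lines and between 2.72 and 437 CPM (median 25.3) in the GCB lines (log2 fold change 2.41, edgeR adjusted p = 0.341). Of 21 cytokine receptor genes none passed. IL2RB, the beta chain of the IL-2 and IL-15 receptors, was between 5.76 and 685 CPM (median 203) in the 5 lines and between 0.605 and 297 CPM (median 7.82) in the GCB lines (log2 fold change 3.12, edgeR adjusted p = 0.194). It passed without FARAGE (log2 fold change 4.19, edgeR adjusted p = 0.0106; adjusted p 0.00599 to 0.751 over all alternatives). IL7R, the receptor of IL-7, was between 8.02 and 61.2 CPM (median 17.0) in the 5 lines and between 2.66 and 2329 CPM (median 54.8) in the GCB lines (log2 fold change -3.10, edgeR adjusted p = 0.485).

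BATF, an AP-1 family factor of activated lymphocytes, was at 2069 CPM in HAIR_M, 301 in HC_1, 32.7 in KARPAS1718, 233 in SSK41 and 1204 in VL51. BATF ran from 5.43 to 456 CPM (FARAGE) in the GCB lines, with a median of 32.4 CPM. The 5 lines were all above the GCB median, KARPAS1718 by little, and HAIR_M and VL51 were above every GCB line. Its call (log2 fold change 3.33, SE 0.81, edgeR adjusted p = 0.0435) was kept, among the fits without 1 line, where KARPAS1718, SSK41, FARAGE or RCK8 was left out. Over all alternatives it was kept in 11 of 35, with adjusted p 0.00168 to 0.422. With CCND2 it made 2 of 16 activated B-cell genes called, against 1.03% of all genes. Of the 16, 13 had a positive log2 fold change, against 1093 of 2334 over all genes. The median was 0.62 against -0.04, with 0.01 in the hairy-cell lines alone and 0.99 in the marginal zone lines alone. IRF4, which drives B cells towards plasma cells, was between 519.7 and 1011 CPM (median 684) in the 5 lines and between 1.05 and 1654 CPM (median 125) in the GCB lines (log2 fold change 1.53, edgeR adjusted p = 0.909). Each of the 5 lines was above the GCB median for IRF4, and DOHH2 had the highest level. None of 9 plasma cell genes was called. TNFRSF17, the survival receptor BCMA of plasma cells, was between 238 and 1847 CPM (median 403) in the 5 lines and between 2.66 and 982 CPM (median 141) in the GCB lines (log2 fold change 1.34, edgeR adjusted p = 0.813).

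Germinal centre genes had levels under the GCB medians in most of the 5 lines, with no member called. Of 17 genes, 13 had a negative log2 fold change, and the median log2 fold change of -0.60 stood against -0.04 over all genes. By line, the median of log2 CPM minus the GCB median was -1.34 in HAIR_M, -1.32 in HC_1, -0.50 in KARPAS1718, 0.66 in SSK41 and -2.19 in VL51, against -1.79 to 2.15 in the GCB lines. VL51 lay below all GCB lines, HAIR_M and HC_1 were within their lower part, and SSK41 was above the GCB median. BCL6, the repressor of the germinal centre, was at 13.9 CPM in HAIR_M, 13.9 in HC_1, 4.01 in KARPAS1718, 52.9 in SSK41 and 6.33 in VL51. BCL6 ran from 1.60 to 429 CPM (SUDHL16) in the GCB lines, with a median of 33.9 CPM (log2 fold change -2.09, edgeR adjusted p = 0.609). Only SSK41 was above the GCB median for BCL6, and the groups overlapped. MME, the surface enzyme CD10, was at 81.3 CPM in HAIR_M, 116 in HC_1, 548 in KARPAS1718, 1675 in SSK41 and 7.52 in VL51. MME ran from 58.1 to 5432 CPM (OCILY1) in the GCB lines, with a median of 1034 CPM (log2 fold change -1.61, edgeR adjusted p = 0.727). SSK41 was again above the GCB median, and VL51 was below the lowest GCB line. MYBL1, a transcription factor of dividing germinal centre cells, was 12.5 CPM in HAIR_M, 12.2 in HC_1 and 14.0 in VL51, and 156 in KARPAS1718 and 519 in SSK41, with a GCB median of 276 (log2 fold change -1.68, edgeR adjusted p = 0.855). PIK3CG, the catalytic subunit of a PI3-kinase, was at 73.5 CPM in HAIR_M, 98.1 in HC_1, 228 in KARPAS1718, 65.3 in SSK41 and 70.3 in VL51. PIK3CG ran from 74.8 to 2457 CPM (SUDHL4) in the GCB lines, with a median of 327 CPM. Every one of the 5 lines was below the GCB median, 3 of them below the lowest GCB line, and PIK3CG did not pass (log2 fold change -2.37, SE 0.77, edgeR adjusted p = 0.205).

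The defining markers followed the class names only in part. TBX21, the transcription factor T-bet that is found in hairy cells, was at 78.7 CPM in HAIR_M, 51.8 in HC_1, 27.4 in KARPAS1718, 11.8 in SSK41 and 4.62 in VL51. TBX21 ran from 0.121 to 16.3 CPM (SUDHL10) in the GCB lines, with a median of 5.21 CPM. HAIR_M, HC_1 and KARPAS1718 were above every GCB line, SSK41 was within the GCB range, and VL51 was just below its median. The call (log2 fold change 2.45, SE 0.60, edgeR adjusted p = 0.0442) was kept, among the fits without 1 line, where SSK41, VL51, FARAGE, OCILY7, SUDHL10 or SUDHL16 was left out. Over all alternatives it was kept in 14 of 34, with adjusted p 0.00183 to 0.453. TIMP1, a metalloproteinase inhibitor, was at 1736 CPM in HAIR_M, 387 in HC_1, 1.5 in KARPAS1718, 9.75 in SSK41 and 598 in VL51. TIMP1 ran from 2.63 to 146 CPM (RCK8) in the GCB lines, with a median of 10.2 CPM. Above every GCB line were HAIR_M, HC_1 and VL51, while SSK41 was close to the GCB median, and KARPAS1718 was below the lowest. TIMP1 was higher over the group (log2 fold change 4.26, SE 0.90, edgeR adjusted p = 0.0173), and not without HAIR_M (log2 fold change 3.13, edgeR adjusted p = 0.222; adjusted p 0.000466 to 0.633 over all alternatives). These were the 2 of 13 hairy-cell markers called, against 1.03% of all genes. Of the 13, 8 had a positive and 5 a negative log2 fold change, with a median log2 fold change of 0.86 against -0.04 over all genes. By line the median for the 13 markers was 2.13 in HAIR_M, 1.53 in HC_1, 0.31 in KARPAS1718, 1.15 in SSK41 and 2.07 in VL51, against -0.87 to 0.83 in the GCB lines. HAIR_M, HC_1, SSK41 and VL51 were above all GCB lines in this summary.

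ANXA1, annexin A1, a diagnostic marker of hairy cell leukaemia, was at 10.6 CPM in HAIR_M, 1030 in HC_1, 3.01 in KARPAS1718, 9.57 in SSK41 and 14.2 in VL51. ANXA1 ran from 0 to 5613 CPM (SUDHL16) in the GCB lines, with a median of 2.39 CPM (log2 fold change -0.73, edgeR adjusted p = 1). It was high in HC_1 and SUDHL16 and near 10 CPM in HAIR_M. IL3RA, the IL-3 receptor CD123, was 17.7 CPM in HAIR_M, 15.2 in HC_1 and 48.3 in VL51, and 0.376 in KARPAS1718 and 2.60 in SSK41, with a highest GCB level of 19.9 CPM (log2 fold change 2.64, edgeR adjusted p = 0.473). ITGAX and ITGAE, which encode the hairy-cell integrins CD11c and CD103, were not analysed here. None of 14 marginal zone B-cell genes was called, and the median log2 fold change was -0.02. NOTCH2, the receptor needed for marginal zone B cells, was 149 CPM in KARPAS1718, 130.0 in SSK41 and 68.6 in VL51, against a GCB median of 155 CPM. The marginal zone lines were below that median, and the hairy-cell lines, at 191 CPM in HAIR_M and 385 in HC_1, were above it (log2 fold change 0.30, edgeR adjusted p = 1). CD79A, a subunit of the B-cell receptor, was between 409 and 847 CPM (median 472) in the 5 lines and between 96.6 and 1200.2 CPM (median 519.5) in the GCB lines.

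JAG1, a ligand of NOTCH receptors, was at 932 CPM in HAIR_M, 90.8 in HC_1, 39.6 in KARPAS1718, 33.6 in SSK41 and 432 in VL51. JAG1 ran from 11.9 to 169 CPM (KARPAS422) in the GCB lines, with a median of 30.6 CPM. HAIR_M and VL51 were above every GCB line, and the other 3 lines were above the GCB median within the GCB range. It was the only one of 22 NOTCH pathway genes called, against 1.03% of all genes (log2 fold change 2.90, SE 0.61, edgeR adjusted p = 0.0173). Its call was lost without HAIR_M (log2 fold change 1.87, edgeR adjusted p = 0.345) or without VL51 (log2 fold change 2.64, edgeR adjusted p = 0.0653). Over all alternatives the adjusted p of JAG1 was 0.000531 to 0.365. CCR10, a chemokine receptor of antibody-secreting cells that home to skin and mucosa, was at 34.6 CPM in HAIR_M, 99.1 in HC_1, 39.0 in KARPAS1718, 16.5 in SSK41 and 85.7 in VL51. CCR10 ran from 5.09 to 30.6 CPM (SUDHL16) in the GCB lines, with a median of 10.7 CPM. It was above every GCB line in HAIR_M, HC_1, KARPAS1718 and VL51. The difference was near the threshold (log2 fold change 1.93, SE 0.48, edgeR adjusted p = 0.0464), and among the fits without 1 line the call was kept where KARPAS1718, SSK41, DOHH2, FARAGE, OCILY7, SUDHL10 or SUDHL16 was left out. Over all alternatives it was kept in 13 of 34, with adjusted p 0.00475 to 0.351. It was the only one of 26 homing receptor and adhesion genes called, against 1.03% of all genes. CCR7, the receptor that guides B cells to lymph node T zones, was at 1478 CPM in HAIR_M, 710.2 in HC_1, 311 in KARPAS1718, 62.1 in SSK41 and 6909.6 in VL51. CCR7 ran from 8.66 to 758 CPM (FARAGE) in the GCB lines, with a median of 41.9 CPM. All of these were above the GCB median and VL51 had the highest level, but CCR7 did not pass (log2 fold change 3.35, SE 0.93, edgeR adjusted p = 0.105). It passed without FARAGE, the highest GCB line for CCR7 (log2 fold change 3.68, edgeR adjusted p = 0.0377; adjusted p 0.0169 to 0.919 over all alternatives). FCER2, the IgE receptor CD23, was at 270.1 CPM in HAIR_M, 2032 in HC_1, 38.5 in KARPAS1718, 9.20 in SSK41 and 3473 in VL51. FCER2 ran from 0.605 to 489 CPM (FARAGE) in the GCB lines, with a median of 11.0 CPM. HC_1 and VL51 were above every GCB line, SSK41 was below the GCB median, and FCER2 stayed just outside the threshold (log2 fold change 4.26, SE 1.08, edgeR adjusted p = 0.0528). It passed in 10 of 35 alternatives, among them the fits with DESeq2 size factors (adjusted p = 0.0335) and without KARPAS1718, SSK41, DOHH2 or FARAGE, and its adjusted p ran from 0.00336 to 0.383.

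MGMT (chr10:129467184-129768007, plus strand), an enzyme that removes alkyl groups from guanine in DNA, was the gene that fell. It was at 12.5 CPM in HAIR_M, 11.3 in HC_1, 0.877 in KARPAS1718, 10.7 in SSK41 and 3.43 in VL51. MGMT ran from 2.81 to 568 CPM (WSU_DLCL2) in the GCB lines, with a median of 162 CPM. The 5 lines were lower than 15 of the 16 GCB lines, and SUDHL6, the GCB line at 2.81 CPM, was lower than all of them but KARPAS1718. MGMT fell by 4.77 on the log2 scale (SE 1.04, edgeR adjusted p = 0.0173). The call was lost without HAIR_M (log2 fold change -5.01, edgeR adjusted p = 0.0755), without HC_1 (log2 fold change -4.95, edgeR adjusted p = 0.0531) or without VL51 (log2 fold change -4.70, edgeR adjusted p = 0.067), with a like size each time, and the adjusted p was 5.2e-08 to 0.317 over all alternatives. None of 51 DNA repair genes, a list that does not hold MGMT, was called. The MGMT promoter is known to be silenced by methylation of its CpG sites in some tumours, and it is shown for the density of these sites, with each CpG in capitals. Methylation was not measured here. The window of 250 bases before to 50 after the start lies at chr10:129466991-129467290 on the plus strand of GRCh38.p14 (RefSeq), written 5′ to 3′.
MGMT: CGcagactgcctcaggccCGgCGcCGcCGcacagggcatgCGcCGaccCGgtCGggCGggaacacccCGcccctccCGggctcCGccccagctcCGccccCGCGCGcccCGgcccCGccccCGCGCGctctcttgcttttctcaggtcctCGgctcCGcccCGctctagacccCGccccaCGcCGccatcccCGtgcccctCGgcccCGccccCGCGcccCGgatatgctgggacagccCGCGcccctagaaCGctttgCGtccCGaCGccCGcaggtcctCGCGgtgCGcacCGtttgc
It held 45 CpG sites, and 97.1% of all promoters of that length in the table held as many or fewer.

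KCNK5, a potassium channel of the K2P family, was at 157 CPM in HAIR_M, 73.1 in HC_1, 2.00 in KARPAS1718, 1.76 in SSK41 and 351 in VL51. KCNK5 ran from 1.19 to 36.6 CPM (SUDHL10) in the GCB lines, with a median of 3.73 CPM. As for CCND2 and CCL5, HAIR_M, HC_1 and VL51 were above every GCB line and KARPAS1718 and SSK41 were not. KCNK5 was higher (log2 fold change 3.73, SE 0.82, edgeR adjusted p = 0.0173), though not without HAIR_M (log2 fold change 3.60, edgeR adjusted p = 0.0755) or without VL51 (log2 fold change 2.62, edgeR adjusted p = 0.265; adjusted p 0.000466 to 0.598 over all alternatives). A further 7 called genes fall outside the naming rule and lists, and were chosen after their values were seen, since they complete the 25. GATA3, a transcription factor of T helper cells, was between 2.00 and 63.5 CPM (median 17.1) in the 5 lines and between 1.84 and 8.00 CPM (median 5.14) in the GCB lines (log2 fold change 2.47, edgeR adjusted p = 0.0102), above every GCB line in all of the 5 lines but KARPAS1718. As no GCB line reached 10 CPM, GATA3 passed the filter only through HAIR_M, HC_1, SSK41 and VL51. IRAK3, an inhibitor of Toll-like receptor signalling, was between 10.9 and 627 CPM (median 170.3) in the 5 lines and between 8.17 and 109 CPM (median 26.4) in the GCB lines (log2 fold change 2.66, edgeR adjusted p = 0.0173), and lost its call without HAIR_M (log2 fold change 2.65, edgeR adjusted p = 0.0649) or KARPAS1718 (log2 fold change 1.79, edgeR adjusted p = 0.166). NGFRAP1, now named BEX3, was between 26.2 and 73.3 CPM (median 57.6) in the 5 lines and between 6.60 and 35.9 CPM (median 12.8) in the GCB lines (log2 fold change 1.84, edgeR adjusted p = 0.0173), with every line above the GCB median but no call without HAIR_M (log2 fold change 1.82, edgeR adjusted p = 0.0755) or HC_1 (log2 fold change 1.71, edgeR adjusted p = 0.0692). NGFRAP1 was the only one of the 25 also called by limma on the deposited log2 values (log2 fold change 1.87, limma adjusted p = 0.048). LPCAT1, an enzyme that remodels phospholipids, was between 213 and 912 CPM (median 510.4) in the 5 lines and between 67.4 and 409.6 CPM (median 184) in the GCB lines (log2 fold change 1.56, edgeR adjusted p = 0.0435), and was kept, among the fits without 1 line, where HC_1, KARPAS1718, FARAGE, RCK8, SUDHL16 or TOLEDO was left out, and in 12 of 35 alternatives in all. Over all alternatives the adjusted p was 0.000526 to 0.365 for GATA3, 0.000512 to 0.383 for IRAK3, 0.000217 to 0.236 for NGFRAP1 and 0.0155 to 0.383 for LPCAT1.

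For the other 3 of these 7, the value depended on 1 line more than on the rest. BMP4, a secreted growth factor, was at 1835 CPM in HAIR_M, 25.8 in HC_1, 4.51 in KARPAS1718, 5.67 in SSK41 and 3.17 in VL51. BMP4 ran from 1.45 to 50.5 CPM (OCILY7) in the GCB lines, with a median of 9.54 CPM (log2 fold change 4.65, SE 0.93, edgeR adjusted p = 0.0153). Only HAIR_M was above the GCB range, and without it the sign turned (log2 fold change -0.61, edgeR adjusted p = 0.988). SERPINB2, an inhibitor of plasminogen activators, was at 47.5 CPM in HAIR_M, 2012 in HC_1, 28.4 in KARPAS1718, 16.7 in SSK41 and 28.1 in VL51. SERPINB2 ran from 2.06 to 90.8 CPM (KARPAS422) in the GCB lines, with a median of 25.8 CPM (log2 fold change 3.57, SE 0.84, edgeR adjusted p = 0.0332). HC_1 alone exceeded all GCB lines, and without it the sign turned as well (log2 fold change -0.25, edgeR adjusted p = 0.931). Its call was also lost without HAIR_M, DB, OCILY1, OCILY18, OCILY19, SUDHL4 or TOLEDO. TIMP2, a metalloproteinase inhibitor, was at 6.38 CPM in HAIR_M, 14.5 in HC_1, 476 in KARPAS1718, 96.0 in SSK41 and 3.96 in VL51. TIMP2 ran from 1.95 to 40.9 CPM (TOLEDO) in the GCB lines, with a median of 6.54 CPM (log2 fold change 3.49, SE 0.76, edgeR adjusted p = 0.0173). KARPAS1718 and SSK41 were above the GCB range, and the call was lost without KARPAS1718 (log2 fold change 1.51, edgeR adjusted p = 0.536). The adjusted p over all alternatives was 0.000491 to 0.999 for BMP4, 0.00336 to 0.931 for SERPINB2 and 0.000639 to 0.994 for TIMP2.

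The hairy-cell and the marginal zone lines were also set against the GCB lines separately. The hairy-cell lines alone gave 20 genes higher (0.857% of those tested) and 1 lower (0.0428%), and the marginal zone lines alone gave 3 higher (0.129%) and 0 lower (0.00%). At an unadjusted p under 0.05 the marginal zone lines had 112 genes higher and 147 lower. Of the 25 genes, 16 were called in the hairy-cell lines alone, 3 (MGST1, KSR1 and TIMP2) in the marginal zone lines alone, 2 of them (MGST1 and KSR1) in both, and 8 in neither. The comparisons share the 16 GCB lines. Direct testing of hairy-cell against marginal zone lines, in a fit over all 21 lines, called no gene by edgeR (0.00%, smallest adjusted p = 0.196), with 376 genes at an unadjusted p under 0.05, of which 292 were higher and 84 lower in the hairy-cell lines. With the log2 TMM factor as a covariate, edgeR gave 163 genes at an unadjusted p under 0.05 and again called none. DESeq2's Wald test called 32 genes in the same comparison, 20 higher and 12 lower. With 2 lines against 3, a p that misses the threshold does not show that the classes have the same levels.

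**Figure D4:**
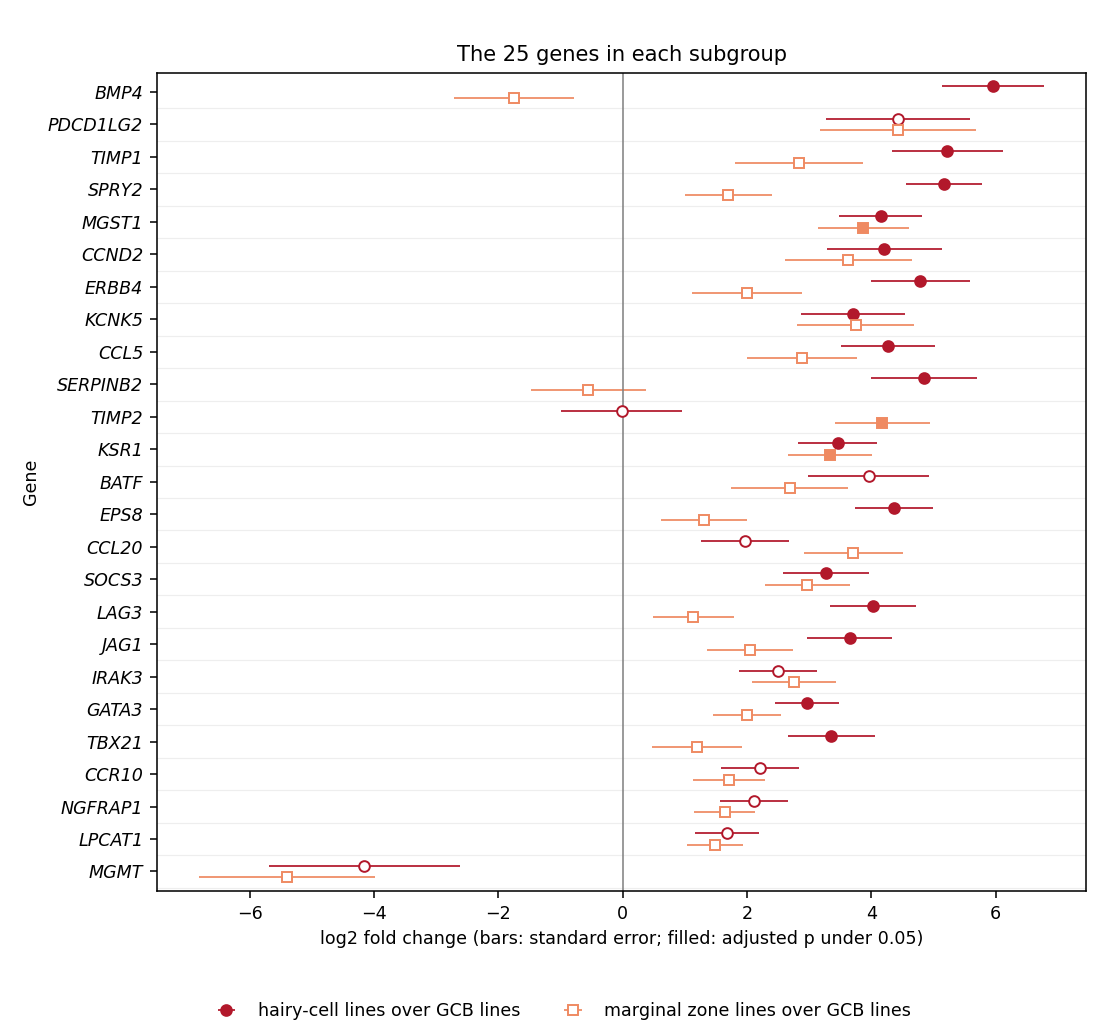
Log2 fold change over the GCB lines of the 25 called genes, for the hairy-cell lines (circles, dark red) and, under them, the marginal zone lines (squares, orange), with bars for the standard error and filled symbols where the adjusted p was under 0.05. The subgroups have opposite signs for BMP4, SERPINB2 and TIMP2 and the same sign for the other 22 genes.

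Germinal centre genes had a median log2 fold change of -1.82 in the hairy-cell lines and -0.28 in the marginal zone lines. The 49 chemokines and cytokines, of which CCL5 and CCL20 were called over the 5 lines, had 0.86 and -1.21, and homing receptor and adhesion genes 0.72 and -1.27, in the hairy-cell and the marginal zone lines. Over all genes these medians were -0.06 in the hairy-cell and -0.09 in the marginal zone lines. Markers of T and NK cells had medians of 0.52 and -0.97 in the hairy-cell and the marginal zone lines, myeloid markers 0.56 and -1.17, and stromal and endothelial markers 0.91 and -0.74, the same signs as the chemokine and homing lists. Epithelial markers had 0.55 and 0.06. By line, the stromal and endothelial median was 0.80 in HAIR_M, 2.58 in HC_1, -0.98 in KARPAS1718, 0.31 in SSK41 and -0.71 in VL51, against -1.45 to 1.49 in the GCB lines. HC_1 was above all GCB lines there, and the part of these markers in the chemokine and homing values was not tested. The difference between subgroups was not tested for lists. Composition factors were 1.10 in HAIR_M, 1.20 in HC_1, 0.757 in KARPAS1718, 1.07 in SSK41 and 0.789 in VL51. The highest GCB factors were 1.47 in OCILY7 and 1.46 in SUDHL10, where the chemokine and cytokine median was 1.95 and 1.87. The lowest were 0.664 in OCILY8 and 0.718 in SUDHL16, with -1.28 and -1.29. The part of scaling in the list values was not tested. No member was called over the 5 lines in the lists of TNF superfamily, B-cell receptor and PI3K signalling, B-cell lineage, MYC target, BCL2 family, p53 target, interferon response, MHC class I and chromatin modifier genes, nor among markers of T and NK, myeloid, stromal and epithelial cells.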

How the data were processed

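RNA of 36 lymphoma cell lines was measured by targeted RNA-Seq of lysates, 1 library per line, and 21 lines were used. The deposited counts are whole numbers per target without scaling, and the deposited log2 values equal the log2 of the authors' scaled count plus 1, within 0.00529. The genome build, hg38, comes from the submitters' processing notes. Aligner, counter and strand were not given in the sources used here, so genes that overlap or have near-identical copies are less certain.

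Of 2559 targets, 10 named ER with a number were taken as control probes and left out. Counts were scaled by TMM in edgeR 4.0.16 (R 4.3.3), genes were kept at 10 CPM in at least 4 lines, and groups were compared by the quasi-likelihood test with Benjamini-Hochberg adjustment over 2334 genes, with a threshold of 0.05. Standard errors were taken as the log2 fold change over the root of the F statistic. Hairy-cell and marginal zone lines were compared in a fit with 3 classes over the 21 lines. Each gene list is described by its counts and median, without a set test, and list levels per line use log2 CPM with a prior count of 2. The fits were tested on simulated data. Alternatives used DESeq2 1.42.0, limma 3.58.1, other scalings, filters and covariates, and fits without single lines.

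Genes were named by a rule: the 14 largest log2 fold changes in each direction among genes past the threshold with the same sign in both subgroups, and members of 30 gene lists. In the subgroup contrast up to 6 genes of each sign past the threshold were to be named, and none passed. The lines, lists and rule were chosen with earlier results of these data known. Results for 3 further genes are not reported here. Coordinates come from GENCODE release 29 and promoters from RefSeq.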

Additional observations from a re-analysis of the deposited data

Results flagged for a closer look

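Single lines stood apart from the other 4 of the 5 lines for 8 of 128 named genes examined, and for 108 of all 2334 genes tested, by the gap to the nearest line as a share of the whole range of log2(CPM + 1). Chance flags about 1 in 20 such groups. The share was 0.765 for SOCS3 in KARPAS1718, the low line, 0.787 for SERPINB2 in HC_1, the high line, and 0.759 for ANXA1 in HC_1, also high. DTX1, a NOTCH target, was low in HC_1 (0.847, at 46.0 CPM against 1908 to 3725 CPM in the other 4 lines). FN1, which encodes fibronectin, was low in KARPAS1718 (0.817, at 0.251 CPM against 32.3 to 68.5 CPM).

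SSK41 was the low line for 3 of these genes: NFKB1 (0.721, at 395 CPM), the antiviral gene MX1 (0.832, at 5.67 CPM) and HLA-B (0.963, at 1394 CPM). In the other 4 lines HLA-B was 10885 to 11771 CPM.

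For 6 of the 128 named genes, and for 524 of the 2334 genes tested, every hairy-cell line lay on one side of the GCB median and every marginal zone line on the other. In 389 of the 524 the hairy-cell lines were above that median, and in 135 below. For the 6 named genes the hairy-cell minus marginal zone log2 fold change was 7.70 for BMP4, 3.38 for LMO2 and 1.32 for NOTCH2, higher in the hairy-cell lines, and -1.62 for MAP3K14, -2.54 for JUN and -3.07 for CDKN2A, higher in the marginal zone lines. The edgeR test of this difference passed for no gene of the panel (smallest adjusted p = 0.196).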

How the results depend on the processing

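The 25 calls over the 5 and the 16 lines became 29 with DESeq2 size factors, 27 with TMM over all 36 lines, 34 with no filter, 23 with robust dispersion and 21 with the hairy-cell lines alone. There were 4 with upper-quartile factors, 4 with library size alone, 12 with a filter at 50 CPM, 2 with limma-voom, 2 with limma on the deposited log2 values and 3 with the marginal zone lines alone. There were 41 with the DESeq2 Wald test, 58 with the log2 TMM factor as a covariate (all 25 among them) and 51 without FARAGE and RCK8 (24 of the 25 among them). Leaving out each line in turn gave 7 to 29 calls for the 5 lines and 19 to 42 for the GCB lines. Between hairy-cell and marginal zone lines, 0 genes were called in each edgeR and limma alternative except for 1 gene without HC_1 (range 0 to 1), and 32 by the DESeq2 Wald test. The cause of these changes was not tested. The sign turned for BMP4 without HAIR_M (range -0.61 to 4.96 over fits without 1 line) and in marginal zone lines alone (-1.75), for SERPINB2 without HC_1 (range -0.25 to 3.88) and in marginal zone lines alone (-0.56), and for TIMP2 in hairy-cell lines alone (-0.0202). KSR1, MGST1, SOCS3 and SPRY2 kept their calls in each of 21 fits without 1 line. GATA3 kept its call in the 17 in which it was tested. It met the filter only through HAIR_M, HC_1, SSK41 and VL51, and was not tested without any 1 of these, so its dependence on them is not known. Upper-quartile factors moved the median log2 fold change of all genes to -0.20, against -0.04 with TMM. No paired analysis was possible because the numbers given to the lines only name them and each line is a separate culture. The depth, with 3 counts worth at most 0.430 CPM, limits levels near 0 and not the genes above 10 CPM.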

Other observations

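ATM, TCF3, TET2 and CDKN1A each lay on one side of the GCB median in all 5 lines without passing the test. ATM, the kinase that responds to DNA double-strand breaks, was between 67.8 and 264 CPM (median 213) in the 5 lines and between 167 and 1125 CPM (median 580.2) in the GCB lines (log2 fold change -1.56, edgeR adjusted p = 0.122), and its adjusted p ran from 0.0251 to 0.422 over 35 alternatives, with 4 past the threshold. Without FARAGE it passed (log2 fold change -1.62, edgeR adjusted p = 0.0475). TCF3, a transcription factor of B-cell identity, was between 91.7 and 923 CPM (median 678) in the 5 lines and between 154 and 5141 CPM (median 1107) in the GCB lines (log2 fold change -1.49, edgeR adjusted p = 0.64). TET2, an enzyme that oxidises methylated cytosine, was between 317 and 1083 CPM (median 935) in the 5 lines and between 24.6 and 939 CPM (median 213) in the GCB lines (log2 fold change 1.41, edgeR adjusted p = 0.251). CDKN1A, the cell cycle inhibitor p21, was between 150.0 and 1736 CPM (median 1566) in the 5 lines and between 8.34 and 1416 CPM (median 99.5) in the GCB lines (log2 fold change 1.81, edgeR adjusted p = 0.537), with HAIR_M, HC_1 and VL51 above every GCB line. TNFRSF8, the activation receptor CD30, was 903 CPM in HAIR_M, 405 in HC_1 and 2175 in VL51, but 3.13 in KARPAS1718 and 10.8 in SSK41, against a GCB median of 13.0 CPM and 804 CPM in FARAGE (log2 fold change 3.40, edgeR adjusted p = 0.211). Without FARAGE it passed (log2 fold change 5.34, edgeR adjusted p = 0.00175; adjusted p 0.00168 to 0.882 over all alternatives).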
